A study of Mus musculus with 8 samples.

Results

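The snoRNP core proteins are the proteins that bind small nucleolar RNAs (snoRNAs) and turn them into working particles. The 10 genes examined here were chosen by name, as Fbl, Nop56, Nop58, Snu13, Dkc1, Nhp2, Nop10, Gar1, Naf1 and Nufip1. All 10 were among the 16119 genes of the deposited table and among the 15837 that passed the low-count filter. RNA sequencing was done on DC-restricted progenitors (CDPs, the bone marrow cells that give rise to dendritic cells) of male mice labelled C57BL/6 (C57BL/6J in the methods). HFD mice carried the label DIO (diet-induced obese) and had a diet with 60 kcal% fat. Their label and the text of the study give 16 weeks as the time on the diet, and the methods give 16 weeks as the age at purchase. CF mice were their age-matched controls on a diet with 10 kcal% fat. There were 4 libraries per diet, each from about 50000 cells sorted as lineage-negative, c-kit intermediate, Sca1 low, CD115+ and Flt3+. The sources do not say how many mice went into a library, so that the p-values measure the spread between these libraries.

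A snoRNA guides a chemical change of a ribosomal or spliceosomal RNA by base pairing, and the proteins on it supply the enzyme. C/D box snoRNAs direct 2′-O-methylation and carry Fbl, Nop56, Nop58 and Snu13. H/ACA box snoRNAs direct pseudouridylation and carry Dkc1, Nhp2, Nop10 and Gar1, which also sit on the telomerase RNA. Most snoRNAs of mammals are cut out of introns of host genes, and the core proteins bind them during that step and keep them from decay, so the genes for the proteins are made separately from most of their RNA partners. In blood cell progenitors these proteins serve the ribosome production that growth and division require.

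Total counts ran from 28203651 to 38969160 in the HFD libraries and from 32575696 to 48409689 in the CF libraries. The 10 genes together took between 0.0186% and 0.0314% of a library, with 179 to 2196 counts per gene and library. Values below are CPM, counts scaled to the library total and by edgeR's TMM factors. The sort was checked against its own markers, and Flt3 stood at 235 to 378 CPM in HFD 2, 3 and 4 and at 227 to 316 CPM in the CF libraries, but at 88.8 CPM in HFD 1. Csf1r, which encodes CD115, stood at 79.4 to 133 CPM over all 8 libraries. The summed level of 10 neutrophil markers was 19500 CPM in HFD 1, 3420 in HFD 2, 1230 in HFD 3 and 923 in HFD 4, against 1880, 6350, 5900 and 5770 CPM in CF 1 to 4. HFD 1 therefore stood apart from the other libraries in its marker genes, and the main counts and fold changes are also given without it. In bulk RNA, fewer cells of a type and less RNA per cell cannot be told apart.

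No member differed between the diets beyond the spread of the libraries. The edgeR quasi-likelihood test with Benjamini-Hochberg adjustment over all genes called 0 of the 10, with adjusted p values between 0.85 and 1.0, against a background of 0.423% of all genes called (67 of 15837). At an unadjusted p below 0.05 there were also 0 of 10, where 8.56% of all genes passed, and DESeq2 and limma voom called 0 as well. The 67 calls depended on single libraries, with 0 to 166 lower and 0 to 34 higher when 1 library was left out. The CPM of the diets overlapped for all 10 members, while 6.16% of all genes had groups that did not overlap. Log2 fold changes, HFD over CF, were positive for 7 members and negative for 3, beside 59.7% positive over all genes and 64.6% over protein-coding genes. Their median was 0.09, against 0.055 over all genes and 0.07 over protein-coding genes. The 95% intervals of the 10 fold changes all lay between −0.46 and 0.52 on the log2 scale, so larger differences than these fell outside the interval of every member.

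**Figure D1:**
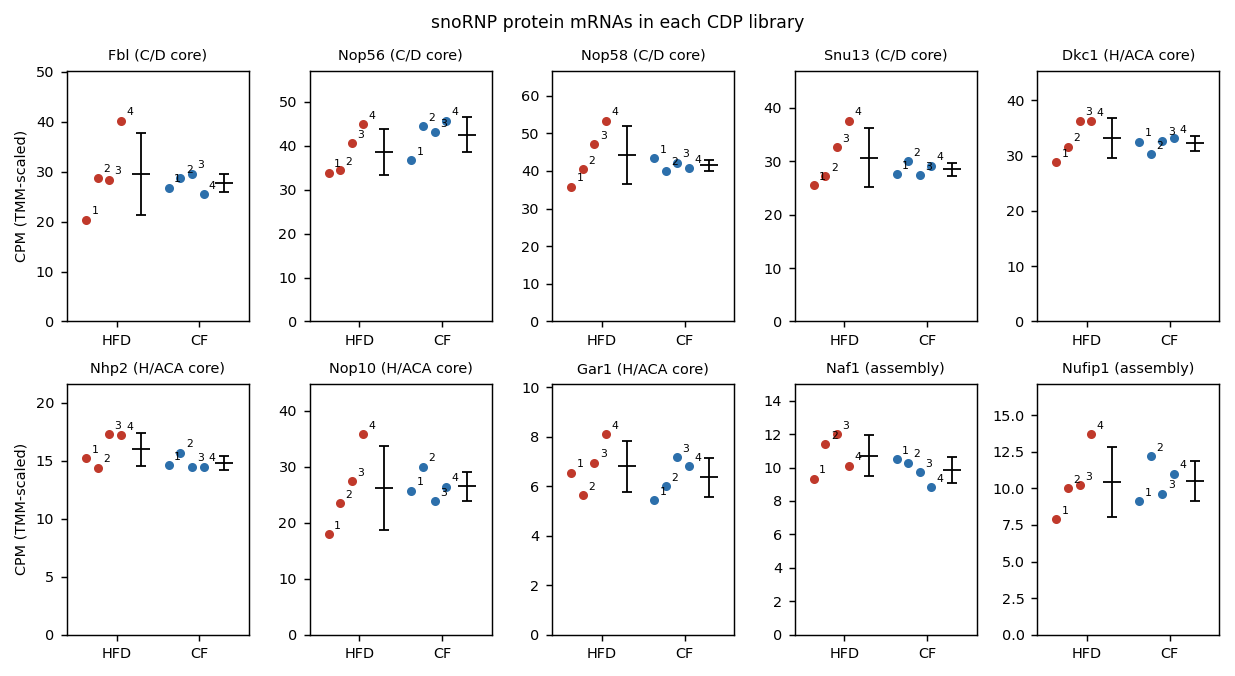
TMM-scaled CPM (vertical axes, from 0) of the 10 snoRNP protein genes in each library, with HFD points red, CF points blue and the replicate number beside each point; the bar to the right of each group is the mean with its SD, n = 4. The diets overlap in every panel, and HFD 4 is the highest library for 6 of the genes.

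Among the C/D core proteins, Fbl (fibrillarin, ENSMUSG00000046865, chr7:28169710-28179269, plus strand) encodes the methyltransferase. Fbl stood at 20.4, 28.8, 28.4 and 40.2 CPM in HFD 1 to 4 and at 26.8, 28.7, 29.6 and 25.5 CPM in CF 1 to 4. The lowest and the highest of the 8 libraries were both HFD, and the means of 29.5 ± 8.17 and 27.7 ± 1.84 CPM (SD, n = 4) differed by 0.09 on the log2 scale (SE 0.19; edgeR adjusted p = 0.95).

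Nop56 and Nop58 encode the paired scaffold proteins that hold Fbl on the snoRNA. Nop56 (ENSMUSG00000027405, chr2:130274430-130279313, plus strand) had 33.9, 34.5, 40.6 and 44.9 CPM in HFD 1 to 4 and 36.7, 44.5, 43.1 and 45.7 CPM in CF 1 to 4. It was the one C/D protein with a negative fold change, −0.14 (SE 0.12, 95% interval −0.43 to 0.14; edgeR adjusted p = 0.85), and HFD 3 and HFD 4 lay inside the range of CF. Nop58 (ENSMUSG00000026020, chr1:59684971-59719044, plus strand) had 35.8, 40.5, 47.1 and 53.3 CPM in HFD 1 to 4 and 43.3, 40, 42.2 and 40.7 CPM in CF 1 to 4. The CF libraries of Nop58 were close together, with an SD of 1.5 CPM against 7.65 CPM in HFD, and the fold change was 0.09 (SE 0.13; edgeR adjusted p = 0.93).

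Snu13 (ENSMUSG00000063480, chr15:82040525-82047598, minus strand) encodes the small protein that recognises the kink-turn of the C/D snoRNA and also binds U4 snRNA. Its CPM were 25.5, 27.2, 32.6 and 37.6 in HFD 1 to 4 and 27.6, 30.0, 27.4 and 29.2 in CF 1 to 4. All 4 CF values lay inside the HFD range, and the fold change was 0.11 (SE 0.13; edgeR adjusted p = 0.91). Snu13 has 9 annotated processed pseudogenes of at least 90% identity, and 4 of them were in the table. Those 4 held 13.9% to 17.8% of the CPM of Snu13 and its copies in a library, and Gm5616 and Gm8741 matched 384 coding bases at 99.5%. For Nop56, 2 copies in the table held 5.54% to 9.35%, and for Fbl 1 copy held 0% to 8.24%. How reads of these copies were divided was not tested, and with the copies summed into their parents 0 members were called and the median remained at 0.09. The gene Tulp4 also carries 677 bases that match the coding part of Fbl at 99.6%, so the Fbl values are uncertain to that extent.

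Among the H/ACA core proteins, Dkc1 (dyskerin, ENSMUSG00000031403, chrX:75095854-75109777, plus strand) encodes the pseudouridine synthase. Dkc1 had 28.8, 31.6, 36.3 and 36.2 CPM in HFD 1 to 4 and 32.5, 30.3, 32.7 and 33.2 CPM in CF 1 to 4. The CF values again lay inside the HFD range, and the fold change of 0.05 (95% interval −0.19 to 0.28; edgeR adjusted p = 0.96) had the joint smallest SE of the 10 members, 0.10.

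Nhp2 and Nop10 encode the small proteins that complete the dyskerin trimer. Nhp2 (ENSMUSG00000001056, chr11:51619735-51623714, plus strand) had 15.2, 14.4, 17.3 and 17.2 CPM in HFD 1 to 4 and 14.6, 15.7, 14.5 and 14.5 CPM in CF 1 to 4. HFD 3 and HFD 4 were above every CF library and HFD 2 was below them all, with a fold change of 0.11 (SE 0.10; edgeR adjusted p = 0.86). Nop10 (ENSMUSG00000027133, chr2:112261926-112263269, plus strand) had 17.9, 23.5, 27.4 and 35.8 CPM in HFD 1 to 4 and 25.7, 30.0, 23.8 and 26.4 CPM in CF 1 to 4. It varied most among the HFD libraries, with 2.0 times as much in HFD 4 as in HFD 1, but its means of 26.2 ± 7.54 and 26.5 ± 2.58 CPM (SD, n = 4) differed by −0.02 on the log2 scale (SE 0.20; edgeR adjusted p = 1.0).

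Gar1 and Naf1 take the same place on the particle in turn, since Naf1 holds the immature H/ACA particle and is exchanged for Gar1 when it matures. Gar1 (ENSMUSG00000028010, chr3:129824912-129831396, minus strand) had 6.55, 5.63, 6.95 and 8.11 CPM in HFD 1 to 4 and 5.43, 6.01, 7.18 and 6.81 CPM in CF 1 to 4. Naf1 (ENSMUSG00000014907, chr8:66860217-66890564, plus strand) had 9.34, 11.4, 12 and 10.1 CPM in HFD 1 to 4 and 10.5, 10.3, 9.73 and 8.81 CPM in CF 1 to 4. The fold changes were 0.10 for Gar1 (SE 0.16; edgeR adjusted p = 0.94) and 0.12 for Naf1 (SE 0.13; edgeR adjusted p = 0.88), and both pairs of groups overlapped. Per kb of principal transcript, the Gar1 to Naf1 ratio ran from 1.17 to 1.89 in HFD and from 1.21 to 1.82 in CF.

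Nufip1 (ENSMUSG00000022009, chr14:76110891-76137379, plus strand) encodes the scaffold that links Snu13 to the chaperone complex which builds C/D particles. Nufip1 had 7.89, 10.0, 10.2 and 13.7 CPM in HFD 1 to 4 and 9.12, 12.2, 9.64 and 11 CPM in CF 1 to 4. The lowest and the highest library were both HFD, and the fold change was −0.01 (SE 0.18; edgeR adjusted p = 1.0).

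Levels between the genes were compared per kb of exon. Over merged exons the order by the mean of 8 libraries was Nop10 (23.7 CPM per kb), Nhp2 (13.5), Snu13 (10.1), Nop56 (9.88), Dkc1 (7.94), Fbl (6.79), Nop58 (3.98), Gar1 (3.84), Naf1 (3.32) and Nufip1 (2.63). Of the neighbours in that order, Nop10 and Nhp2 did not overlap over the 8 libraries (16.1 to 32.3 against 12.6 to 15.1 CPM per kb), and every later pair of neighbours did. These ranges, here and below, pool the 8 libraries. They do not compare genes within the same library, so an overlap does not mean that the order changed there. The order depended on the length used, since the merged exons of Nop58 come to 10758 nt and its longest transcript to 9507 nt, while its principal transcript has 1713 nt. Per kb of principal transcript, Nop58 stood at 25, Fbl at 23.9, Nop10 at 23.7 and Nop56 at 21.6 CPM per kb, with overlapping ranges. Nhp2 (14.8), Snu13 (14.3) and Dkc1 (11.7) followed, with overlap between neighbours, and Nhp2 did not overlap Nop56. Gar1 (5.18), Naf1 (3.44) and Nufip1 (2.63) were the lowest 3, as they were over merged exons, and of these Naf1 and Nufip1 overlapped. With the longest transcript as the length, Nop58 (4.51) was below Gar1 (5.18), with overlapping ranges, and the lowest 3 were then Nop58, Naf1 and Nufip1.

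**Figure D2:**
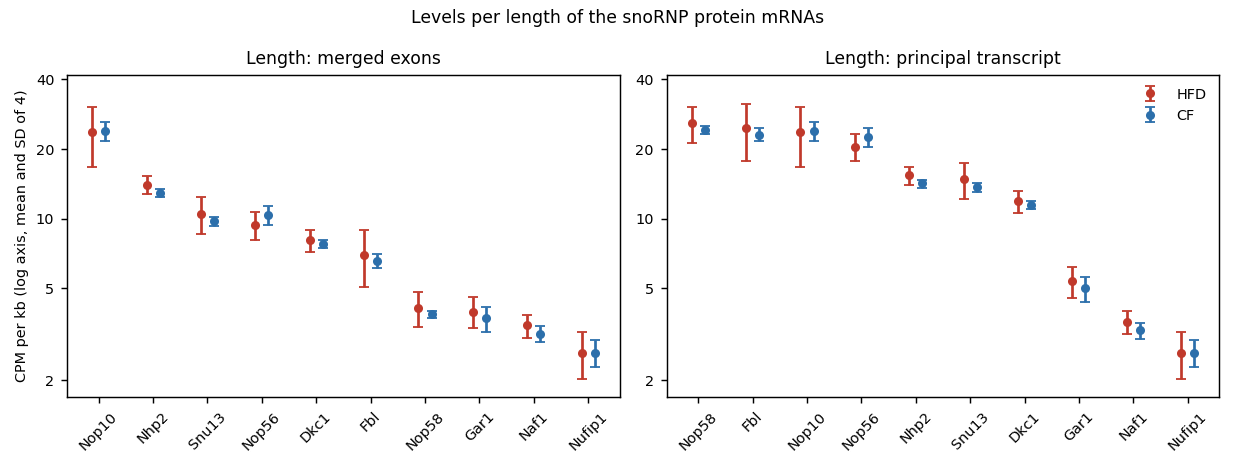
CPM per kb (vertical log axis) of the 10 genes in HFD (red) and CF (blue), as mean and SD of 4 libraries, ordered by the mean of all 8, with merged exons as the length on the left and the principal transcript on the right. Gar1, Naf1 and Nufip1 are the lowest on both of these lengths, while Nop58 moves from 3.98 to 25.

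The balance between the particle classes overlapped between the diets. The summed C/D core level was 1.48 to 1.57 times the summed H/ACA core level in HFD and 1.48 to 1.62 times in CF, per kb of principal transcript. Over merged exons these ratios were 0.61 to 0.632 and 0.613 to 0.667. Per kb of principal transcript, the ratio of Fbl to Dkc1, the enzymes of the classes, ran from 1.66 (HFD 1) to 2.6 in HFD. It ran from 1.83 without HFD 1, and from 1.8 to 2.22 in CF. Over merged exons this ratio was 0.692 to 1.09 in HFD and 0.751 to 0.928 in CF, so which gene was higher depended on the length. Nop56 over Nop58, per kb of principal transcript, was 0.768 to 0.864 for the HFD libraries. The CF libraries had 0.774 to 1.03, and CF 1 was the one CF library inside the HFD range. With merged exons as the length, Nop56 over Nop58 was 2.21 to 2.49 for the HFD libraries. The CF libraries then had 2.23 to 2.95. Whether Nop56 was above or below Nop58 in the HFD libraries thus depended on the length.

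The spread between libraries was the larger feature of these genes. The SD of log2 CPM was larger in HFD than in CF for 10 of 10 members, as it was for 67.2% of all genes. Its median over the members was 0.233 in HFD and 0.105 in CF, against 0.283 and 0.202 over protein-coding genes. Without HFD 1 the SD remained larger in HFD for 10 of 10 members (52.2% of all genes), with a median of 0.217 in HFD against 0.212 over protein-coding genes. HFD 1 was the lowest of all 8 libraries for 7 members (21.2% of all genes), and HFD 4 was the highest for 6 (18.7% of all genes). The range of CF lay inside that of HFD for 7 members (34.0% of all genes). The level in HFD 4 over that in HFD 1 had a median of 1.4 over the members, from 1.08 for Naf1 to 2.0 for Nop10, while its median over protein-coding genes was 1.01.

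Most of the members varied together over the 8 libraries. With each gene scaled to its own mean and SD, the mean of the members was −1.17, −0.42, 0.70 and 1.42 SD in HFD 1 to 4 and −0.40, 0.10, −0.12 and −0.11 SD in CF 1 to 4. Pearson's r of a member with the mean of the other 9 was 0.97 for Snu13, 0.91 for Nop58, 0.89 for Nop10, 0.85 for Fbl, 0.82 for Dkc1 and 0.80 for Nufip1. It was lower for Nhp2 (0.70), Nop56 (0.59), Gar1 (0.54) and Naf1 (0.18). Without HFD 1, r was 0.98 for Snu13, 0.88 for Nhp2, 0.86 for Nop58, 0.84 for Nop10, 0.77 for Fbl, 0.74 for Gar1, 0.70 for Nufip1, 0.69 for Dkc1, 0.41 for Nop56 and −0.05 for Naf1. These are descriptions over libraries that differ in depth and in marker genes, and Naf1 departed most from the rest either way. The 10 neutrophil markers were all highest in HFD 1 and all lowest in HFD 4, the opposite order of these libraries, and the 7 erythroid markers were all highest in HFD 1 (390 CPM in sum, against 74.7 to 122 in the others). Their part in the pattern of the members was not tested. Of the other lists, the 4 sort gate markers summed to 231 CPM in HFD 1 and to 384 to 514 in the other libraries. That low sum came from Flt3. Csf1r (93.6 CPM in HFD 1), Kit (45.6) and Ly6a (2.98) lay inside the range of the other libraries. The 9 dendritic cell markers summed to 593 CPM in HFD 1 against 886 to 1300. Of these, Irf8, Zbtb46, Itgax and Cd74 were lowest in HFD 1, while Tcf4, Id2, Siglech, Bst2 and Spib were not. The 8 B cell markers summed to 1300 CPM in HFD 1 against 317 to 654. The 7 granulocyte progenitor markers summed to 1210 CPM in HFD 1 and to 219 to 731 in the others, and the 7 monocyte markers to 248 to 694 over all 8 libraries. Of 6 T and NK cell markers, Cd3e, Cd3g and Ncr1 were not among the genes tested, and the remaining 3 summed to 8.4 to 27.6 CPM.

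**Figure D3:**
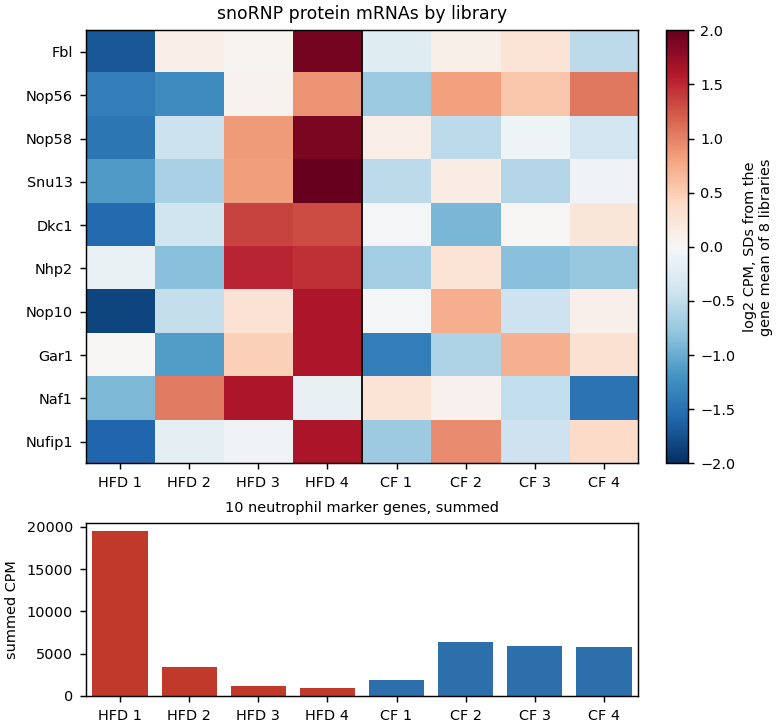
Upper panel, log2 CPM of each snoRNP protein gene as SDs from its mean over 8 libraries (colour scale, red high and blue low), with HFD left and CF right of the line. Lower panel, summed CPM of 10 neutrophil markers in the same libraries; HFD 1 is low for most members and has 19500 CPM of neutrophil markers, and HFD 4 is high for most members and has 923.

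Without HFD 4, the count of members with a positive fold change went from 7 to 2 and the median from 0.09 to −0.05. Without HFD 1 the count was 9 and the median 0.13. For the 7 members that were lowest in HFD 1, the fold changes without it were 0.23 for Fbl, −0.09 for Nop56, 0.18 for Nop58, 0.19 for Snu13, 0.11 for Dkc1, 0.13 for Nop10 and 0.11 for Nufip1, with edgeR adjusted p values of 0.48 to 0.80. Without both libraries, a choice made after seeing the data, 6 members were positive, the median was 0.04 and 0 were called. The direction of most of these small differences thus depended on which libraries entered. Nop56, Nhp2 and Naf1 kept their sign with any 1 library left out.

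The 5 other genes whose log2 CPM was most like the mean of the members, by Pearson's r over the 8 libraries, were Sdhaf1 (r = 0.993), Csrp1 (0.979), Adh5 (0.979), Trp53rka (0.974) and Hspbp1 (0.97). Each of them was lowest in HFD 1 and highest in HFD 4, as Csrp1, with 38.9 CPM in HFD 1, 80.0 CPM in HFD 4 and 51.6 to 54.9 CPM in CF. They were picked from all genes tested for this likeness, and r is given as a description.

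Members of the pathway around the core particles were read from the same fit. Of 58 listed genes 57 were tested, and edgeR called 0 of them. Their log2 fold changes were positive for 42 and negative for 15, with a median of 0.09, beside 64.6% positive and a median of 0.07 over protein-coding genes, against which the counts of the single lists below are also to be set. Without HFD 1, 43 were positive and 14 negative with a median of 0.15, beside 58.6% positive and a median of 0.048 over protein-coding genes, and edgeR called 0. At an unadjusted p below 0.05 there were 3 (Shq1, Myc and Mlx), where 5.38% of protein-coding genes passed.

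Of the assembly and Cajal body partners, 11 of 14 were positive, with a median of 0.08. Shq1, the chaperone that holds newly made dyskerin, had 4.33, 3.90, 5.46 and 3.86 CPM in HFD 1 to 4 and 3.75, 2.93, 2.39 and 3.07 CPM in CF 1 to 4. Every HFD library was above every CF library, which 3.76% of protein-coding genes show in one direction or the other, and the fold change of 0.53 (SE 0.20, 95% interval 0.08 to 0.99) did not pass the adjusted threshold (edgeR adjusted p = 0.44). Wrap53, which brings H/ACA RNAs of the Cajal body and telomerase RNA to that body, had 4.81 to 6.71 CPM in HFD and 4.09 to 5.14 CPM in CF, a fold change of 0.30 (edgeR adjusted p = 0.70).

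Proteins listed for the U3 particle, a C/D snoRNP that serves the cleavage rather than the methylation of pre-rRNA, were positive for 6 of 7, with a median of 0.12. Their lowest p values belonged to Utp3 (log2 fold change 0.21) and Mphosph10 (0.17), with edgeR adjusted p values of 0.77 and 0.80. Genes of snoRNA maturation and transport were positive for 13 of 16, with a median of 0.12. Mtrex, the helicase of the nuclear exosome, had 39.5 to 45.6 CPM in HFD and 35.8 to 39.9 CPM in CF, and these ranges met at their ends (log2 fold change 0.18; edgeR adjusted p = 0.66). Phax, the adaptor for nuclear transport of capped small RNAs, had a fold change of 0.23 (edgeR adjusted p = 0.81).

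Telomerase and shelterin genes were positive for 6 of 8, with a median of 0.08. Pot1b and Terf1, both shelterin proteins at chromosome ends, had fold changes of −0.25 and 0.16 (edgeR adjusted p = 0.76 and 0.81). Genes of the MYC network, whose activators drive transcription of ribosome production genes, were divided evenly, with 6 of 12 positive and a median of −0.02 (5 of 12 and −0.04 without HFD 1). Mxd1, which opposes MYC, had 306 CPM in HFD 1, 22.0 to 46.6 CPM in the other HFD libraries and 43.0 to 150 CPM in CF, so its fold change was −0.06 with HFD 1 and −1.69 without it (edgeR adjusted p = 1.0 and 0.12). Mxi1, of the same family, had 47.3 CPM in HFD 1, 13.2 to 15.4 CPM in the other HFD libraries and 16.4 to 24.5 CPM in CF, with fold changes of 0.06 and −0.58 (edgeR adjusted p = 0.99 and 0.12). DESeq2 without HFD 1 called both lower, Mxd1 at −1.71 (adjusted p = 0.00028) and Mxi1 at −0.60 (adjusted p = 0.017). In that fit 877 genes were called lower and 173 higher, of 15863 tested. Mxd1 and Mxi1 were highest in HFD 1 and lowest in HFD 4, as was the neutrophil marker sum (19500 and 923 CPM). The part of the neutrophil markers in these calls was not tested. Myc had 34.9, 38.7, 51.0 and 52.6 CPM in HFD 1 to 4 and 37.6, 27.4, 36.8 and 33.2 CPM in CF 1 to 4, with overlap and a fold change of 0.39 (edgeR adjusted p = 0.54). Without HFD 1 the fold change of Myc was 0.49 (edgeR adjusted p = 0.16). Its groups then did not overlap, as for 11.2% of protein-coding genes. Mlx, a partner of the MYC-related factors, was lower in HFD (4.95 to 7.79 CPM) than in CF (6.94 to 12.9 CPM), with overlap and a fold change of −0.61 (edgeR adjusted p = 0.41).

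Some of the members also host snoRNAs, which gives a comparison of both products of one gene. The annotation holds 10 snoRNA genes on the same strand inside members, 5 in Nop56, 4 in Nop58 and 1 in Dkc1, and 8 of them were tested. Of these, 4 lie between the merged exons of the host, whose introns are numbered from the 5′ end, and 4 overlap annotated exons of the host. The 5 below were chosen to show both snoRNA classes, the similar pair and the largest difference. Sequences are from GENCODE vM21 on GRCm38, in DNA letters, 5′ to 3′ along the plus strand, and capitals mark TGATG (a C box core) within the first 25 bases and CTGA (a D box) within the last 20, or ACA 3 bases from the end.
Snord110 (Nop56 intron 4, chr2:130275506-130275573): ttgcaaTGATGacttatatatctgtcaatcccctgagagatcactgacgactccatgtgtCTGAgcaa
Gm24451 (in Nop56, chr2:130276237-130276369): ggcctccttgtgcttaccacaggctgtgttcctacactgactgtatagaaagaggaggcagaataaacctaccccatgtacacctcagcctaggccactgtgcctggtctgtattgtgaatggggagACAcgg
Snord70 (Nop58 intron 3, chr1:59691934-59692020): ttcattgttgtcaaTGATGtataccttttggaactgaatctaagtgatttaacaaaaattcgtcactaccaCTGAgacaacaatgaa
Gm26293 (in Nop58, chr1:59692509-59692592): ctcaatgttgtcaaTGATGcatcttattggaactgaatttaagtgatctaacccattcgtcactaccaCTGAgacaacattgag
Gm26287 (Nop58 intron 10, chr1:59704258-59704338): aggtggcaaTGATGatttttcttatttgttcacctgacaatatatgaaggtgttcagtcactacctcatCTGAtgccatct
Both boxes, searched on the strand of the RNA, occur in 357 of the 1507 annotated snoRNA genes (23.7%). Snord70 and Gm26293 share 87% of 77 aligned bases, and how their reads were placed was not tested.

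Log2 fold changes of the 8 snoRNAs ran from −1.74 to −1.16, beside −0.14 for Nop56 and 0.09 for Nop58. Snord110 had 29.0, 75.4, 91.1 and 116 CPM in HFD 1 to 4 and 265, 206, 180 and 109 CPM in CF 1 to 4, a log2 fold change of −1.29. Gm24451 had 14.4, 21.9, 26.9 and 37.0 CPM in HFD 1 to 4 and 113, 79.0, 62.5 and 46.3 CPM in CF 1 to 4, a log2 fold change of −1.58 and the lowest adjusted p of the 8 (edgeR, 0.11). Every HFD library of Gm24451 was below every CF library, while Snord110 overlapped through HFD 4 and CF 4. In Nop58, Snord70 had 14.4, 34.7, 36.1 and 48 CPM in HFD 1 to 4 and 125, 102, 90.2 and 57.3 CPM in CF 1 to 4 (log2 fold change −1.49). Gm26293, the one similar to Snord70, had 12.9, 41.7, 41.8 and 52.2 CPM in HFD 1 to 4 and 142, 104, 91.8 and 60.2 CPM in CF 1 to 4 (−1.42). Gm26287 had 2.05, 6.32, 7.84 and 8.98 CPM in HFD 1 to 4 and 32.3, 22.4, 17.5 and 12 CPM in CF 1 to 4 (−1.74). The diets did not overlap for any of these 3 snoRNAs of Nop58.

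Fold changes of the remaining 3 were −1.56 for Gm23650, −1.16 for Snord57 and −1.64 for Snord11, which gave a median of −1.52 over the 8. By edgeR 0 of 8 passed the adjusted threshold (adjusted p 0.11 to 0.33), where 5.56% of snoRNA genes, 5.99% of those inside protein-coding genes and 0.423% of all genes were called lower. All 8 passed at an unadjusted p below 0.05, as did 86.9% of snoRNA genes and 87.1% of those inside protein-coding genes. DESeq2 called 8 of 8, beside 66.7% of snoRNA genes and 3.18% of all genes called lower by it. Groups did not overlap for 6 of the 8, the exceptions being Snord110 and Snord57, and 62.4% of snoRNA genes (60.8% inside protein-coding genes) were lower in every HFD library than in every CF library. HFD 1 was the lowest and CF 1 the highest library for 8 of 8. Without HFD 1 their fold changes ran from −1.44 to −0.95 (edgeR adjusted p 0.061 to 0.26), and without CF 1 from −1.45 to −0.80 (edgeR adjusted p 0.27 to 0.66). Without HFD 1, groups did not overlap for 6 of 8 (63.4% of snoRNA genes), and DESeq2 called 8 of 8 (72.2% of snoRNA genes). Of the 9 dendritic cell markers 6 had positive and 3 negative fold changes, from −1.12 (Cd74) to 1.47 (Siglech), and edgeR called 0. Groups did not overlap for 3 of them, beside 3.76% of protein-coding genes. Spib was above every CF library in each HFD library (27.1 to 60.5 against 12.3 to 23.2 CPM; log2 fold change 1.4, edgeR adjusted p = 0.11), and Siglech overlapped through HFD 1 (edgeR adjusted p = 0.20). Cd74 (98.4 to 208 against 230 to 520 CPM; −1.12, edgeR adjusted p = 0.18) and Id2 (19.8 to 30.7 against 32.6 to 44.6 CPM; −0.45, edgeR adjusted p = 0.42) were below every CF library in each HFD library. The other 5 overlapped, Irf8 (0.34), Bst2 (0.75) and Itgax (0.54) through HFD 1 alone, and Tcf4 (0.04) and Zbtb46 (−0.34) also otherwise. Without HFD 1, groups did not overlap for 7 of the 9, beside 11.2% of protein-coding genes, and edgeR called 3 higher in HFD, beside 1.26% of all genes called. These were Siglech (1.75, adjusted p = 0.016), Spib (1.57, adjusted p = 0.038) and Itgax (0.77, adjusted p = 0.05, just under the threshold), while Irf8 was at 0.56 (adjusted p = 0.11). The part of these cell markers in the lower snoRNA values was not tested.

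**Figure D4:**
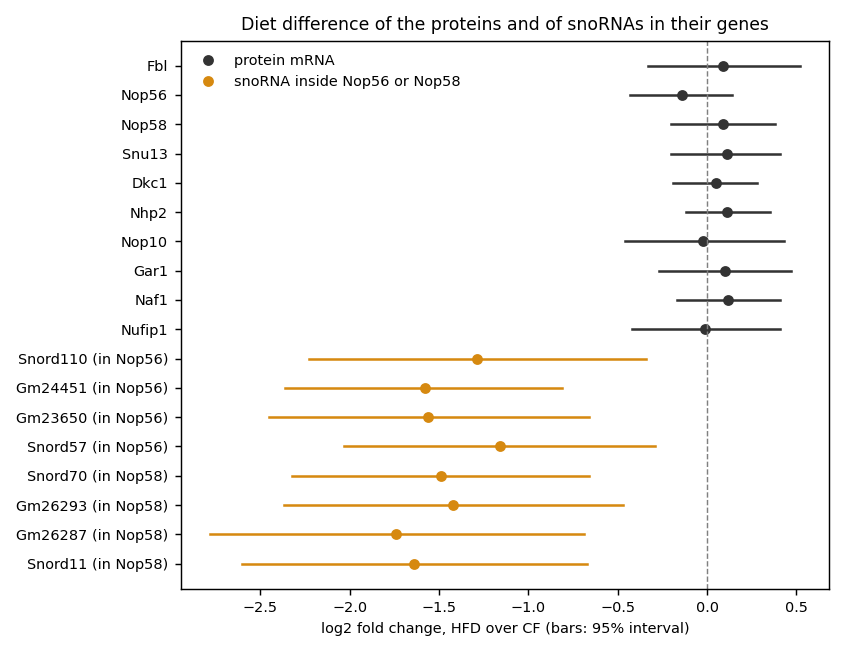
Log2 fold change, HFD over CF (horizontal axis), of the 10 protein genes (black) and of the 8 snoRNAs inside Nop56 and Nop58 (orange), with 95% intervals from the edgeR fit. The protein genes lie between −0.14 and 0.12, and the snoRNAs between −1.74 and −1.16.

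The comparison was also made within each library, by the log2 ratio of a snoRNA to the mRNA of its host. For Gm24451 this ratio was −1.23, −0.65, −0.59 and −0.28 in HFD 1 to 4 and 1.62, 0.83, 0.54 and 0.02 in CF 1 to 4. For Snord70 it was −1.31, −0.22, −0.38 and −0.15 in HFD 1 to 4 and 1.52, 1.35, 1.10 and 0.49 in CF 1 to 4. The ratio was lower in every HFD library than in every CF library for 6 of the 8, and for 66.4% of the 223 pairs of a snoRNA and a protein-coding host in the whole table. Without HFD 1 these were 6 of 8 and 66.8%. Differences of the mean ratio ran from −1.9 for Gm26287 to −1.0 for Snord57. Over the 223 pairs, made of 217 snoRNAs and 137 hosts, the ratio difference had a median of −1.39 and was negative for 222, while the fold change of the hosts had a median of 0.05. Counts of Nop56 and Nop58 may include reads of Gm24451, Gm23650, Snord57 and Gm26293, which overlap annotated exons of their hosts, and the part this plays was not tested.

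**Figure D5:**
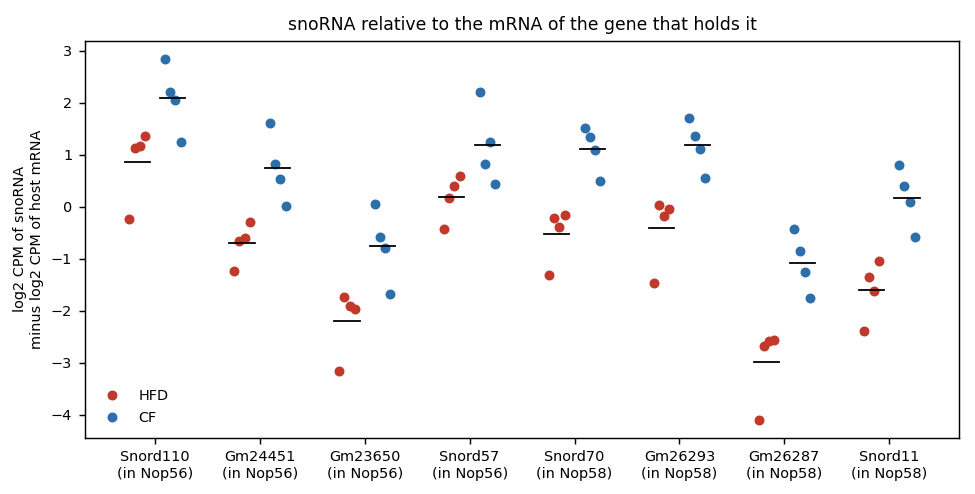
Log2 CPM of each snoRNA minus log2 CPM of its host mRNA (vertical axis) in HFD (red) and CF (blue), with replicates 1 to 4 from left to right in each group and a line at the group mean. The HFD points lie below the CF points without overlap for 6 of the 8 snoRNAs, and CF 1 is the highest point for each.

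Grouped by the protein class that binds them, both classes of snoRNA lay in the same direction. The 74 tested genes named Snord, which carry the C/D core proteins, were lower in HFD in 74 of 74, with a median of −1.3 and 1 called by edgeR (1.35%). The 40 tested genes named Snora, which carry the H/ACA core proteins, were lower in 40 of 40, with a median of −1.45 and 4 called (10.0%), where edgeR called 5.56% of all snoRNA genes and 0.423% of all genes lower. Over all genes tested, 59.7% had a positive fold change. DESeq2 called 46 of 74 and 36 of 40, beside 66.7% of all snoRNA genes called lower by it. Without HFD 1 it called 53 and 37, beside 72.2% of all snoRNA genes. The calls of edgeR depended on the libraries that entered, since it called 0 genes of either family with the replicate block or without any 1 of HFD 2, HFD 3, HFD 4, CF 1, CF 2 and CF 3, and 6 and 11 without HFD 1 and 8 and 10 without CF 4. Without HFD 1 the medians were −1.09 and −1.26, and every gene of both families was lower in HFD in each setting that tested them, library size alone included. The core proteins of these classes had median fold changes of 0.09 and 0.07.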

How the data were processed

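The authors sorted CDPs into lysis buffer, made libraries with the NuGen Ovation Solo system, which depletes rRNA, and sequenced them from both ends. The submitters' processing notes name FastQC, cutadapt, HISAT2, StringTie and GRCm38, and their versions and the annotation release are not given in the sources used here. The deposited values are raw counts per gene that the authors took from uniquely mapped pairs. Names and positions came from GENCODE vM21, in which 16067 of the 16119 Ensembl identifiers were found. The test was edgeR 4.0.16 under R 4.3.3 (filterByExpr, TMM, robust quasi-likelihood fit, diet as the only term, Benjamini-Hochberg threshold 0.05), with limma 3.58.1 and DESeq2 1.42.0 as alternatives; the study used Ballgown. Log2 CPM had a prior count of 2. How far purification and library steps keep RNAs of snoRNA size was not tested. Strand use in counting is not stated, and the 3′ ends of Nop56, Dkc1 and Nhp2 overlap Idh3b, Mpp1 and Rmnd5b on the other strand by 5, 45 and 44 exonic bases. Copies were found with blastn 2.17.0 (at least 90% identity over 75 bases). The scripts were tested on simulated data. Genes named are all members, snoRNAs inside them, the 2 genes of lowest p of each pathway list, and the 5 most alike. Markers, copies and genes called under an alternative were added with their values known. These are Spib, Siglech, Cd74, Id2, the other dendritic cell markers, Flt3, Csf1r, Kit, Ly6a, Tulp4, Mxd1 and Mxi1. The members and lists were chosen with earlier results of these data known, and the snoRNA sequences shown were picked after their values were seen. Sample columns were matched to replicates by the sample number in their names.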

Additional observations from a re-analysis of the deposited data

Results flagged for a closer look

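Of 56 groups of 4 libraries examined with Dixon's test, 4 had a library far from its group, where chance gives about 1 in 20. CF 2 was the highest CF library for Nhp2, at 3.98 log2 CPM against 3.86 to 3.87 in the other CF libraries. HFD 1 was the lowest HFD library for the snoRNA Gm23650 in Nop56, at 1.93 log2 CPM against 3.38 to 3.53, and for Gm26293 in Nop58, at 3.70 against 5.38 to 5.71. HFD 2 was the highest HFD library for Terf1, at 4.73 log2 CPM against 4.35 to 4.41. Left out of the fit, HFD 1 changed no call for these genes.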

How the results depend on the processing

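Under 19 alternatives 0 members were called. Of the pathway lists 0 genes were called in 18 of them, while DESeq2 without HFD 1 called 2 lower (Mxd1, −1.71, and Mxi1, −0.60), and the lowest adjusted p of a member was 0.41 (edgeR, Naf1 with library size alone). With 1 library left out in turn, the count of positive members ran from 2 to 9 and their median from −0.05 to 0.13; by gene the fold changes ran from −0.14 to 0.23 (Fbl), −0.05 to 0.18 (Nop58), −0.04 to 0.19 (Snu13), −0.04 to 0.11 (Dkc1), −0.24 to 0.13 (Nop10), −0.04 to 0.18 (Gar1), −0.20 to 0.11 (Nufip1), −0.27 to −0.09 (Nop56), 0.04 to 0.16 (Nhp2) and 0.06 to 0.18 (Naf1). Without HFD 4, 2 members were positive, and Fbl (−0.14), Nop58 (−0.05), Snu13 (−0.04), Dkc1 (−0.04) and Gar1 (−0.04) turned negative; without HFD 1 and 4, Gar1 was at −0.03. Library size alone moved the median of all genes to 0.25, so Nop56 (0.04), Nop10 (0.18) and Nufip1 (0.18) became positive, with the members at 0.04 to 0.33. Nop10 was also positive without HFD 1 (0.13, by DESeq2 0.12), HFD 2 (0.03) or CF 2 (0.05), and Nufip1 without HFD 1 (0.11, by DESeq2 0.10), HFD 2 (0.01), HFD 3 (0.01), CF 2 (0.07) or CF 4 (0.02). These 19 of 190 recomputed fold changes that changed sign stayed at adjusted p values of 0.68 or more, and the cause was not tested. The snoRNAs inside Nop56 and Nop58 kept a negative fold change in all settings that tested them (−2.01 to −0.8). With the replicate number as a block, 0 members were called, 7 were positive and their median was 0.06. Same-numbered libraries did not deviate together (correlations −0.439 to −0.0779), so no pairing by number was seen. With so few libraries, which also differ in marker genes, these correlations cannot exclude a pairing. Over all genes edgeR called 67 lower and 0 higher. It called 0 with the replicate block, with protein-coding genes alone, or without HFD 3, CF 1, CF 2 or CF 3; 1 lower without HFD 2; 1 lower and 1 higher without HFD 4; 7 lower and 1 higher without HFD 1 and 4; 154 lower without CF 4; and 166 lower and 34 higher without HFD 1. With library size alone it called 98 lower and 10 higher. DESeq2 called 503 lower and 64 higher, and 877 and 173 without HFD 1, an alternative chosen after seeing the data.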
